A study of Mus musculus with 11 samples.

Results

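The genes described are 10 that encode proteins of the skeletal muscle Z-disc and the Xin repeat family: the alpha-actinins Actn2 and Actn3, the myozenins Myoz1, Myoz2 and Myoz3, the Xin repeat proteins Xirp1 and Xirp2, filamin C (Flnc), the LIM and PDZ protein Ldb3 (also called ZASP or cypher) and myotilin (Myot). They were taken by name from the 55487 genes in the deposited tables, and each matched 1 row. All 10 passed the filter on low counts, among 10505 genes tested. RNA was read in gastrocnemius, a mixed hindlimb muscle, by QuantSeq, which counts tags from the 3' ends of polyadenylated transcripts, with 450 ng of total RNA per library. Of the 11 libraries, 4 are labelled wild type, 3 Raptor knockout and 4 Raptor mTOR double knockout.

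Raptor (gene Rptor) belongs to mTOR complex 1 and not to mTOR complex 2, and the kinase mTOR (gene Mtor) is part of both. The knockout mice carried floxed Raptor, or floxed Raptor and floxed mTOR. Cre came from the human skeletal actin (HSA) promoter, a promoter of muscle fibres, and was joined to a mutant oestrogen receptor domain that answers to tamoxifen. All 3 groups, wild type included, are labelled with tamoxifen treatment. It was begun at an age of 3 months and given in chow for 7 weeks, and the muscle was taken 7 months after its start. Whether the wild-type mice carried Cre or floxed alleles is not given in the sources used here.

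The Z-disc is the border between neighbouring sarcomeres, where actin filaments of opposite polarity are anchored by antiparallel dimers of alpha-actinin. Actn3 is the alpha-actinin of fast glycolytic fibres, while Actn2 is made in all skeletal fibres and in heart. Myozenins, also called calsarcins, bind alpha-actinin, filamin C and the phosphatase calcineurin, and Myoz2 is the form of slow fibres and heart. Xin repeat proteins bind actin filaments and gather at Z-disc damage and at myotendinous junctions, together with filamin C. Ldb3 and myotilin bind alpha-actinin, and mutations of LDB3, FLNC and MYOT cause myofibrillar myopathies in people.

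The largest rises against wild type were in Xirp1, Actn2, Myoz2 and Flnc, and they were found in both knockouts. Levels are CPM, a gene's count over the library total on a common scale, corrected by TMM, a normalization that centres the bulk of genes. In the double knockout Xirp1 rose 6.50-fold, Actn2 4.25-fold, Myoz2 3.30-fold and Flnc 2.11-fold. In the Raptor knockout these rises were 4.88-fold, 4.46-fold, 3.48-fold and 2.17-fold. Actn3 and Myoz1, the fast-fibre forms, fell in both knockouts by smaller factors, and Xirp2 and Myoz3 did not pass the test in either.

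Of the 10 genes, 7 were called in the double knockout against wild type at an adjusted p under 0.05, 5 higher and 2 lower. Among all tested genes 26.7% were called in that comparison, 13% higher and 13.7% lower. In the Raptor knockout against wild type 8 were called, 6 higher and 2 lower, where the share of all tested genes was 18.2%, with 8.73% higher and 9.43% lower. None was called between the knockouts, where 0.0286% of tested genes were. With the sequencing run as a covariate, 5 were called in the double knockout and 7 in the Raptor knockout against wild type. Of the 10505 tested genes, 2119 and 1854 were called with that covariate. Without the 2 double-knockout libraries of the smaller run, 4 and 6 of the 10 were called, beside 1906 and 1601 of all tested genes. The median log2 fold change of the 10 genes was 0.32 in the double knockout and 0.52 in the Raptor knockout against wild type, beside 0.02 and 0.00 over all tested genes. Both comparisons used the same 4 wild-type libraries, so they are not independent. In whole muscle, fewer cells of a type and less RNA per cell cannot be told apart.

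**Figure D1:**
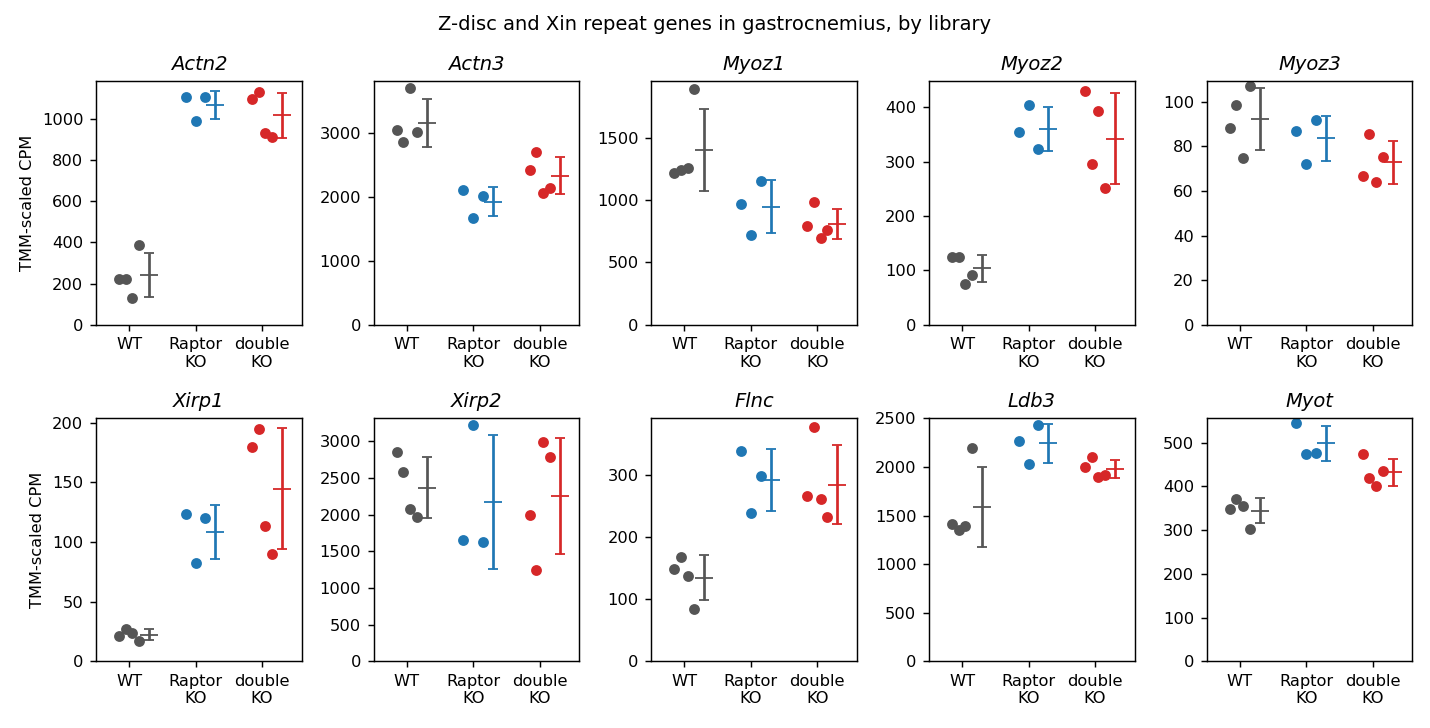
TMM-scaled CPM (y axis, linear from 0) of the 10 genes in each library (points) of wild type, Raptor knockout and double knockout, with the group mean and SD as a bar with caps. Actn2, Xirp1, Myoz2 and Flnc sit apart from wild type in both knockouts, while the Xirp2 points of the 3 groups overlap.

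Library totals ran from 2791339 to 6328533 counts, and 2 double-knockout libraries, replicates 3 and 4, came from a separate, smaller sequencing run. Rptor stood at 8.57 to 10.6 CPM in wild type, 3.85 to 4.99 in the Raptor knockout and 4.07 to 5.37 in the double knockout. Mtor stood at 15.2 to 28.2, 18.2 to 22.6 and 31.8 to 39.5 CPM in the same order and so was higher in the mice labelled double knockout. On the deposited TPM scale the gap was wider, with Mtor at 1.97 to 4.98, 2.83 to 3.12 and 26.8 to 38.7 TPM. The labels do not say which exons were floxed, and tags from the 3' end do not check a deletion upstream of it. Fibre markers of the tissue check (Ckm, Acta1, Mylpf, Tnnt3, Myh4, Des and Mb) summed to 82570 to 99256 CPM in every library, and 4 of the 7 were called against wild type in each knockout, 2 higher and 2 lower. Among them Tnnt3 had a log2 fold change of -1.10 ± 0.11 (SE), Acta1 of 0.59 ± 0.11 and Des of 0.52 ± 0.10 in the double knockout. Xist, made only from an inactive X chromosome, reached 95.6 to 208 CPM in 4 libraries (double-knockout replicates 1 to 3 and replicate 3 of wild type) and was near 0 in the other 7, so this split is uneven between the groups. Each library title has its own number, but nothing in the labels says that each library is a separate mouse. Xist differed within wild type and within the double knockout, so neither group came from a single mouse. The p-values measure only the spread between libraries, and how much of it is technical is not known.

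Promoter activity was not measured, and no motif was tested against the changes. Actn2, Myoz2 and Flnc rose in both knockouts, and Ldb3, by the test, in the Raptor knockout only. The 250 bases before the annotated start of these 4 genes are shown with those of Xirp2, which was not called. They are from RefSeq (GRCm38.p6), 5' to 3' on the strand of the gene, and the table used held entries for 5 of the 10 genes. Capitals mark every match, on both strands, to an E-box, an MCAT element, a TATA box, a MEF2 site or a CArG box. The E-box (CANNTG) is a broad class, of which MyoD family factors bind some sites and not all. MCAT (CATTCC) is bound by TEAD factors and the CArG box by Srf, and the TATA box is TATAAA.
Actn2 chr13:12340733-12340982, minus strand: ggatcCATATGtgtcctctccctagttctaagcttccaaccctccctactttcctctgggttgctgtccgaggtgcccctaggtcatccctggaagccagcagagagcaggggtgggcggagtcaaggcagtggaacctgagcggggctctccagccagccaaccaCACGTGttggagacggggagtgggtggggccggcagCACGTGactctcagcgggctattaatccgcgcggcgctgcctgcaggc
Myoz2 chr3:123034988-123035237, minus strand: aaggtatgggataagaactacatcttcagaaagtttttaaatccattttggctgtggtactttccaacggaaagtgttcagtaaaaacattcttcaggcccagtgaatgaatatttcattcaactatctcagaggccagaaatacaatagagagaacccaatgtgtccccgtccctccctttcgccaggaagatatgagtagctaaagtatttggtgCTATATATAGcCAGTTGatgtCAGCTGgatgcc
Flnc chr6:29433006-29433255, plus strand: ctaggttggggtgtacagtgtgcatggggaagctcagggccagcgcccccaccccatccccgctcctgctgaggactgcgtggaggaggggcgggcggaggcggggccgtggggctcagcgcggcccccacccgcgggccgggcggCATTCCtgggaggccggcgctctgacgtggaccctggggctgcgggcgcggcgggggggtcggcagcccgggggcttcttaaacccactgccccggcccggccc
Ldb3 chr14:34588682-34588931, minus strand: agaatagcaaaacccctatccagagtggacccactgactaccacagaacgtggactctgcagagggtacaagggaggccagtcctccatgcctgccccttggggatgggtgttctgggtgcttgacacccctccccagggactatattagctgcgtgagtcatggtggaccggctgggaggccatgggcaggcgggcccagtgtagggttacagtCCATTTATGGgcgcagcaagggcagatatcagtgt
Xirp2 chr2:67445752-67446001, plus strand: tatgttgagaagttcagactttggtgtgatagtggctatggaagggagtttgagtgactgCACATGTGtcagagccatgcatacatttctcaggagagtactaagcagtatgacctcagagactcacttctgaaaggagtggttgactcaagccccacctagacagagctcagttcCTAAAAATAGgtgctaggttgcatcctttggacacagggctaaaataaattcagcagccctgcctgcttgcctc
Distances are from the RefSeq start. For Actn2 and Myoz2, the start in the gene positions given below (GENCODE) lies before the RefSeq one. The end of each of these stretches is thus inside the gene on those positions. The Actn2 stretch held 3 E-boxes and no other motif searched. Myoz2 held a MEF2 match whose first base was at -33 from the start, and 2 E-boxes between it and the start. Both E-boxes are past the GENCODE start. Flnc held an MCAT match at -104, and its other entry, chr6:29432903-29433152, held no motif searched. Ldb3 held a CArG match at -35, which its other, overlapping entry also holds. Xirp2 held a MEF2 match at -74 and 2 E-boxes that overlap each other. Of all 32851 promoter entries, 66.2% had an E-box, 12.6% an MCAT, 12.4% a TATA box, 2.92% a MEF2 match and 1.47% a CArG box in the same length. The MEF2 match was thus shared by Myoz2, which rose, and Xirp2, which was not called, and no motif searched was in all 5 stretches.

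Actn2 (ENSMUSG00000052374, chr13:12269426-12340760 on GRCm38, minus strand, protein coding) cross-links actin at the Z-disc of all fibres. It stood at 222, 221, 128 and 385 CPM in wild-type replicates 1 to 4, at 1104, 988 and 1105 in the Raptor knockout and at 1094, 1128, 932 and 912 in the double knockout. Every knockout library was above the highest wild-type library, and the knockouts overlapped each other. Non-overlap of this kind, in the higher direction, was seen for 13.1% of tested genes in the double knockout and 14% in the Raptor knockout. Fitted against wild type, the log2 fold change was 2.09 ± 0.25 (SE; edgeR quasi-likelihood test, adjusted p = 5.61e-05) in the double knockout and 2.16 ± 0.26 (adjusted p = 0.000146) in the Raptor knockout.

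Actn3 (ENSMUSG00000006457, chr19:4861216-4877909, minus strand), the fast-fibre alpha-actinin, moved the other way. Wild-type libraries had 3054, 2855, 3714 and 3021 CPM, Raptor-knockout libraries 2103, 1666 and 2015, and double-knockout libraries 2422, 2703, 2066 and 2144. All knockout libraries lay below all wild-type libraries, as did 13.6% of tested genes in the double knockout and 13.2% in the Raptor knockout. The Raptor knockout had the lower mean of the 2. Its log2 fold change was -0.71 ± 0.14 in the Raptor knockout (edgeR, adjusted p = 0.0022) and -0.44 ± 0.13 in the double knockout (edgeR, adjusted p = 0.0187). The call in the double knockout was lost under 9 of 25 alternatives. It was lost without double-knockout replicate 3 (-0.38, adjusted p = 0.0643 by edgeR), without replicate 4 (-0.40, adjusted p = 0.057) without both, which is without the smaller run (-0.30, adjusted p = 0.215), with the run as a covariate (-0.30, adjusted p = 0.182) and when library totals replaced TMM (-0.21, adjusted p = 0.284).

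Together, Actn2 and Actn3 tags summed to 3400 ± 325 CPM in wild type (SD, n = 4), 2994 ± 298 in the Raptor knockout (n = 3) and 3350 ± 396 in the double knockout (n = 4), so the sum changed less than either part. Actn2 made up 7.15 ± 3.26% of this sum in wild-type libraries, 35.7 ± 1.43% in those of the Raptor knockout and 30.4 ± 0.856% in those of the double knockout. For each Actn2 tag there were 13.8, 12.9, 28.9 and 7.85 Actn3 tags in the wild-type libraries. The Raptor-knockout libraries had 1.91, 1.69 and 1.82, and the double-knockout libraries 2.21, 2.40, 2.22 and 2.35. The mean log2 ratio of Actn3 to Actn2 was 3.82 ± 0.78 in wild-type libraries, 0.85 ± 0.09 in those of the Raptor knockout and 1.20 ± 0.06 in those of the double knockout (SD). Against wild type it was lower by a difference of -2.97 in those of the Raptor knockout and -2.63 in those of the double knockout, with p = 0.0286 in each (exact permutation test over libraries, two-sided, the smallest p these group sizes allow; adjusted over 9 ratio tests, 0.0367). Leaving out any 1 wild-type or Raptor-knockout library took the adjusted p of every ratio test described here, for all 3 pairs, to 0.0643 or more (exact permutation).

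The same ratio also separated the knockouts, with a log2 difference of 0.35 between the double and the Raptor knockout (exact permutation p = 0.0286, adjusted 0.0367). That difference rests on the scale, and the log2 ratio of TPM to CPM varied over libraries with an SD of 0.34 for Actn2, beside a median of 0.03 over 3348 genes. From the deposited TPM values the ratio was 2.46, 1.62 and 3.05 in the Raptor knockout and 2.40, 3.39, 2.08 and 2.34 in the double knockout, which overlap, and the log2 difference was 0.13 (exact permutation, adjusted p = 0.8). Against wild type, with TPM ratios of 10.9, 11.03, 25.2 and 11.2, both knockouts stayed apart on the TPM scale too (log2 differences of -2.56 and -2.44, exact permutation, adjusted p = 0.0429).

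**Figure D2:**
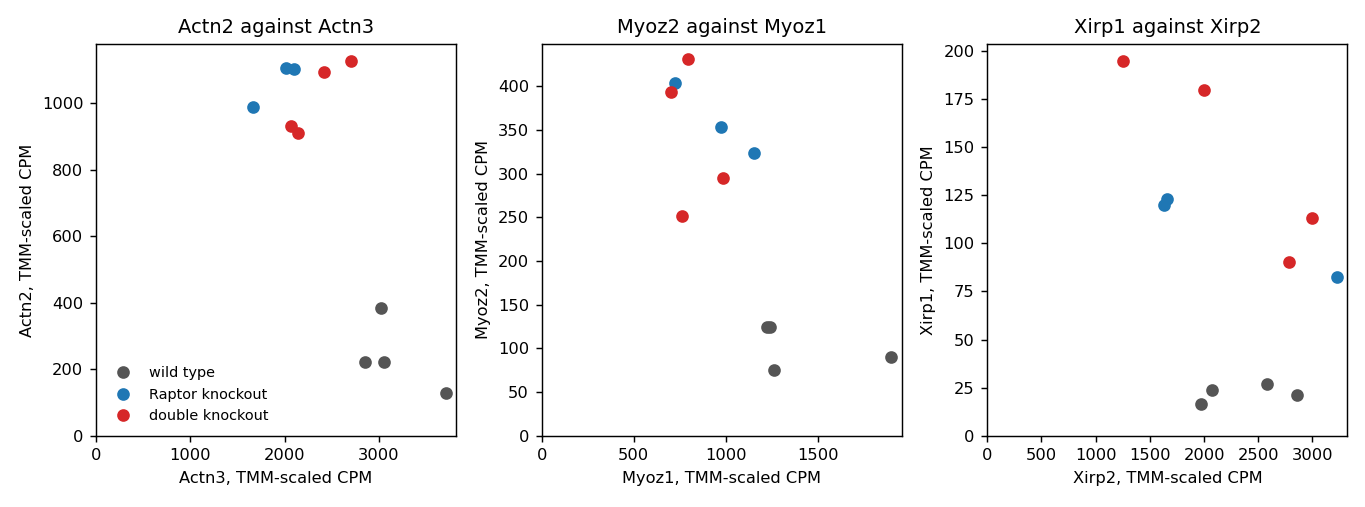
Levels of each paralog pair against each other (both axes TMM-scaled CPM, linear from 0), 1 point per library. In the Actn2 and Actn3 panel and the Myoz2 and Myoz1 panel the wild-type points sit at the lower right and the knockout points of both kinds at the upper left, and in the Xirp1 and Xirp2 panel the groups separate along the Xirp1 axis only.

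Among the myozenins too, the slow-fibre form rose and a fast-fibre form fell. Myoz2 (ENSMUSG00000028116, chr3:123006206-123035015, minus strand), whose promoter is shown above, stood at 125, 125, 75.8 and 90.6 CPM in wild type. It reached 354, 404 and 324 CPM in the Raptor knockout and 431, 295, 393 and 251 in the double knockout. The lowest knockout library was above the highest wild-type library. Fitted log2 fold changes were 1.80 ± 0.20 in the Raptor knockout (edgeR, adjusted p = 3.26e-05) and 1.72 ± 0.19 in the double knockout (edgeR, adjusted p = 1.17e-05). In the 7 libraries without Xist, which leave replicate 4 as the lone double-knockout library, the latter was 1.13, a value given with no test.

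Myoz1 (ENSMUSG00000068697, chr14:20649107-20656540, minus strand) is the myozenin of fast fibres. It had 1220.3, 1239, 1261 and 1894 CPM in wild type, 972, 721 and 1150.4 in the Raptor knockout and 793, 982, 699 and 760.2 in the double knockout. All knockout libraries were below all wild-type libraries, and wild-type replicate 4 stood well above the other 3. The log2 fold change was -0.80 ± 0.17 in the double knockout (edgeR, adjusted p = 0.00291) and -0.57 ± 0.19 in the Raptor knockout (edgeR, adjusted p = 0.0476). Without wild-type replicate 4 these were -0.63 (edgeR, adjusted p = 0.00259) and -0.43 (adjusted p = 0.048). The Raptor-knockout call was lost under 15 of 25 alternatives. Among them were the fits without wild-type replicate 1, Raptor-knockout replicate 1 or 2, or double-knockout replicate 1, 3 or 4, with adjusted p from 0.0511 to 0.173 by edgeR.

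Myoz3 (ENSMUSG00000049173, chr18:60573750-60591788, minus strand), a further fast-fibre myozenin, had 88.1, 98.7, 74.7 and 107 CPM in wild type, 86.7, 72.3 and 91.9 in the Raptor knockout and 66.7, 85.4, 63.9 and 75.3 in the double knockout. The groups overlapped. Its log2 fold change was -0.34 ± 0.15 in the double knockout (edgeR, adjusted p = 0.104) and -0.14 ± 0.16 in the Raptor knockout (edgeR, adjusted p = 0.593). Without wild-type replicate 3, the lowest of its group, the former was -0.45 (edgeR, adjusted p = 0.0325).

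Myoz2 thus made up 6.74 ± 2.22% of all myozenin tags in wild type (SD, n = 4), 26.5 ± 6.66% in the Raptor knockout (n = 3) and 28.0 ± 6.56% in the double knockout (n = 4). The tags of the 3 myozenins summed to 1599 ± 329, 1392 ± 185 and 1224 ± 125 CPM in the same order. Every double-knockout library (1087 to 1363 CPM) was below every wild-type library (1411 to 2092 CPM) in this sum, while the Raptor knockout overlapped both. For each Myoz2 tag there were 9.78, 9.93, 16.6 and 20.9 Myoz1 tags in wild type, 2.75, 1.78 and 3.55 in the Raptor knockout and 1.84, 3.33, 1.78 and 3.03 in the double knockout. The mean log2 ratio of Myoz1 to Myoz2 differed from wild type by -2.39 (Raptor knockout) and -2.50 (double knockout), with an exact permutation p = 0.0286 each (adjusted 0.0367). Between the knockouts it differed by -0.11 (exact permutation, adjusted p = 0.8), less than the spread of 0.47 to 0.50 (SD) within them.

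Xirp1 (ENSMUSG00000079243, chr9:120013755-120023598, minus strand), a marker of fibre remodelling, had the largest fold change of the 10 genes. It stood at 21.4, 27.2, 24.0 and 16.7 CPM in wild type, at 123, 82.6 and 120.1 in the Raptor knockout and at 179.8, 195, 113 and 90.1 in the double knockout. The knockouts lay far above wild type and overlapped each other, and the double knockout ranged widely, with replicates 1 and 2 higher than 3 and 4. The log2 fold change was 2.7 ± 0.25 in the double knockout (edgeR, adjusted p = 4.23e-06) and 2.29 ± 0.26 in the Raptor knockout (edgeR, adjusted p = 5.67e-05). Restricted to the 7 libraries lacking Xist, where replicate 4 alone stands for the double knockout, the fold was 4.12 in place of 6.50, with no test. Cx3cr1, a gene on the same strand that overlaps Xirp1 and is expressed by macrophages, had 37 counts over all libraries, beside 3613 for Xirp1.

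Xirp2 (ENSMUSG00000027022, chr2:67446002-67526614, plus strand) was by tags among the most abundant of the 10 genes and varied more between libraries than between groups. Wild-type libraries had 2859, 2581, 2073 and 1971 CPM, Raptor-knockout libraries 1659.6, 3225 and 1632, and double-knockout libraries 1998, 1252, 2992 and 2782. Raptor-knockout replicate 2 and double-knockout replicates 3 and 4, the latter from the smaller run, were high, and the other knockout libraries were low. The log2 fold change was -0.07 ± 0.29 in the double knockout (edgeR, adjusted p = 0.878) and -0.13 ± 0.31 in the Raptor knockout (edgeR, adjusted p = 0.828).

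The transcripts mt-Rnr2, Ttn and Neb, named after their values were seen, moved with Xirp2 by library. The mitochondrial 16S ribosomal RNA, mt-Rnr2, stood at 36524, 35809, 24916 and 4834 CPM in wild type, at 4315, 22423 and 3116 in the Raptor knockout and at 8087, 4967, 17927 and 15595 in the double knockout. The titin gene, Ttn, followed the same order of high and low knockout libraries, with 7061, 18451 and 6109 CPM in the Raptor knockout and 10274, 6304, 16290 and 14589.6 in the double knockout. The nebulin gene, Neb, had 3898, 9473 and 2821 CPM in the Raptor knockout and 6081, 3068, 8756 and 8297 in the double knockout. Flnc and Xirp1, whose longest transcripts have 9038 and 5839 bases, did not follow this order among the knockout libraries. Both were lowest of the Raptor knockout in replicate 2 (239 and 82.6 CPM). Both were also lower in double-knockout replicates 3 and 4 than in 1 and 2. In wild type, replicate 4 was the lowest in mt-Rnr2, Ttn, Neb and Xirp2, and in Flnc and Xirp1 too. With mt-Rnr2 as a covariate, the log2 fold change of Xirp2 was 0.16 in the double knockout (edgeR, adjusted p = 0.511) and 0.27 in the Raptor knockout (adjusted p = 0.368). On the TPM scale it was 0.31 (limma, adjusted p = 0.118) and 0.33 (limma, adjusted p = 0.156), so its sign depended on the scale and it was called on neither. Its log2 ratio of TPM to CPM varied over libraries with an SD of 0.38.

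**Figure D3:**
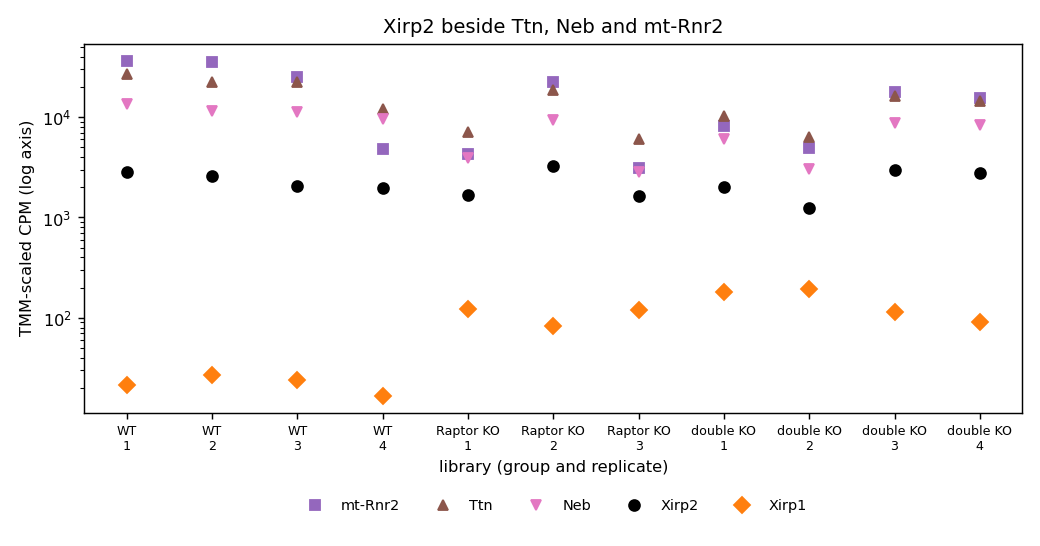
TMM-scaled CPM (y axis, log scale) of Xirp1, Xirp2, Ttn, Neb and mt-Rnr2 in each of the 11 libraries (x axis, by group and replicate). Xirp2, Ttn, Neb and mt-Rnr2 are all high in Raptor-knockout replicate 2 and double-knockout replicates 3 and 4 and low in the other knockout libraries, while Xirp1 is higher in each knockout library than in wild type.

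The ratio of Xirp1 to Xirp2 tags was 0.00748 to 0.0116 in wild type, 0.0256 to 0.0742 in the Raptor knockout and 0.0324 to 0.156 in the double knockout, with no overlap against wild type. Its mean log2 value differed from wild type by 2.47 (Raptor knockout) and 2.78 (double knockout), with an exact permutation p = 0.0286 each (adjusted 0.0367). In the libraries with mt-Rnr2 above 10000 CPM, which leave replicate 2 as the lone Raptor-knockout library, the difference for the Raptor knockout was 1.40.

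Flnc (ENSMUSG00000068699, chr6:29433256-29461883, plus strand) encodes filamin C, which cross-links actin at the Z-disc and the membrane and binds Xin proteins and myotilin. It had 149, 168, 137 and 84.3 CPM in wild type, 338, 239 and 298 in the Raptor knockout and 265, 376.8, 261 and 232 in the double knockout. All knockout libraries exceeded all wild-type libraries. Its fitted log2 change was 1.12 ± 0.21 in the Raptor knockout (edgeR, adjusted p = 0.00212) and 1.08 ± 0.20 in the double knockout (edgeR, adjusted p = 0.00109). In the libraries with mt-Rnr2 above 10000 CPM it was 0.70 in the double knockout, left there with replicates 3 and 4, those of the smaller run. That difference cannot be told apart from one of run and is given with no test. The log2 change was 0.66 in the lone Raptor-knockout library left, replicate 2, also given with no test. In the lone double-knockout library without Xist, replicate 4, it was 0.78 against the wild-type libraries without Xist, also with no test.

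Ldb3 (ENSMUSG00000021798, chr14:34526603-34588682, minus strand), which holds alpha-actinin at the Z-disc, had 1412, 1354, 1391 and 2197 CPM in wild type, 2265, 2034 and 2431 in the Raptor knockout and 1999, 2106, 1898 and 1914 in the double knockout. Wild-type replicate 4 lay among the knockouts, and the other 3 wild-type libraries lay below all of them. The log2 fold change was 0.50 ± 0.16 in the Raptor knockout (edgeR, adjusted p = 0.0384) and 0.32 ± 0.15 in the double knockout (edgeR, adjusted p = 0.125). Without wild-type replicate 4 it was 0.66 (edgeR, adjusted p = 9.93e-05) and 0.50 (adjusted p = 0.000355), the latter a call not made with all libraries. The Raptor-knockout call was lost under 14 of 25 alternatives. These included leaving out wild-type replicate 1, 2 or 3, Raptor-knockout replicate 1 or 3, or double-knockout replicate 1, 3 or 4, with adjusted p from 0.0513 to 0.147 by edgeR.

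Myot (ENSMUSG00000024471, chr18:44334074-44355724, plus strand) encodes myotilin, which binds alpha-actinin and filamin C. It had 349, 372, 354 and 303 CPM in wild type, 545, 474 and 477 in the Raptor knockout and 473, 419, 399.9 and 436 in the double knockout. The 3 groups did not overlap, with the double knockout between the others, but its highest library (473.1 CPM) was close to the lowest of the Raptor knockout (473.8 CPM). On the TPM scale the knockouts overlapped, at 189 to 237 TPM in the double and 216 to 243 TPM in the Raptor knockout. Non-overlap of the double below the Raptor knockout was seen for 7.03% of tested genes. The log2 fold change was 0.53 ± 0.12 in the Raptor knockout (edgeR, adjusted p = 0.00556) and 0.33 ± 0.11 in the double knockout (edgeR, adjusted p = 0.0414). The latter call was lost under 15 of 25 alternatives. These included leaving out wild-type replicate 1, 2 or 3, Raptor-knockout replicate 1 or 3, or double-knockout replicate 1, 2 or 4, with adjusted p from 0.0541 to 0.142 by edgeR, and the fit with the sequencing run as a covariate (0.37, adjusted p = 0.0753).

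Between the double and the Raptor knockout, no member passed the test (edgeR, adjusted p from 0.568 to 0.976), and none had an unadjusted p under 0.05, where 9.49% of tested genes did. DESeq2 called none either. The log2 differences ran from -0.23 (Myoz1, SE 0.19) to 0.41 (Xirp1, SE 0.25). The lowest unadjusted p was 0.0653. With 3 and 4 libraries these data do not show that the levels are equal.

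**Figure D4:**
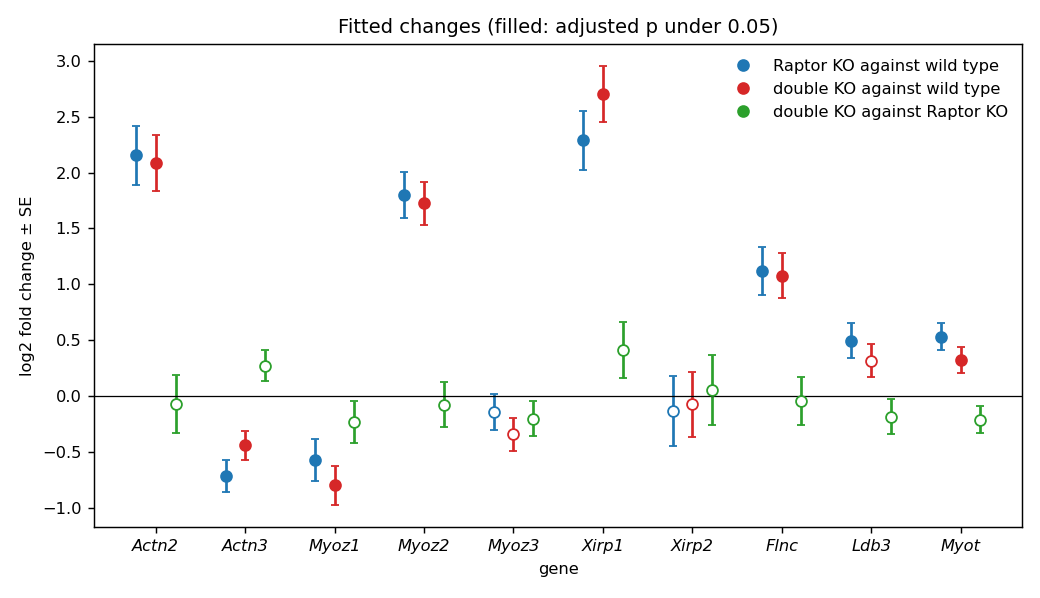
Fitted log2 fold change (y axis) with its SE for each of the 10 genes in the 3 comparisons, filled where the adjusted p is under 0.05. The rises of Actn2, Myoz2, Xirp1 and Flnc against wild type have like sizes in both knockouts, and every double-against-Raptor-knockout point is open.

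Per length, on the deposited TPM scale, the 10 genes in wild type ran in the order Actn3 (2969.9 ± 519, SD, n = 4), Myoz1 (975 ± 170), Ldb3 (841 ± 205), Xirp2 (353 ± 34.2), Actn2 (222 ± 50.8), Myot (146 ± 19.3), Myoz2 (79.3 ± 18.9), Xirp1 (26.2 ± 2.98), Myoz3 (23.2 ± 2.22) and Flnc (13.1 ± 3.76). The neighbours Myoz1 and Ldb3, Actn2 and Myot, and Xirp1 and Myoz3 overlapped between libraries. In both knockouts the mean TPM ran in the order Actn3, Ldb3, Actn2, Myoz1, Xirp2, Myoz2, Myot, Xirp1, Flnc, Myoz3. Actn2 had a mean of 857 ± 201 TPM in the Raptor knockout (n = 3) and 976 ± 152 in the double knockout (n = 4), above Myoz1 at 714 ± 153 and 631 ± 81.6. TPM divides by transcript length, while a 3' tag is read about once per transcript, so long transcripts such as Xirp2 and Flnc rank lower by TPM than by CPM.

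As a whole, the 10 genes took 0.807 to 0.887% of the counts in wild type, 0.989 to 1.02% in the Raptor knockout and 0.954 to 1.10% in the double knockout. After TMM scaling their sum was 9040 to 10070.5 CPM, 9550.2 to 9905 and 9543 to 9819, which overlap. The rise in the share of raw counts is therefore not seen on the scaled values, on which wild-type libraries had factors of 0.87 to 0.965.

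Genes whose pattern over the 11 libraries was most like that of Xirp1, by the mean absolute difference of centred log2 CPM, were 2410006H16Rik (0.26), Eef1a1 (0.29), Nlrc3 (0.29), Tuba1b (0.32) and Fam174b (0.33). Eef1a1, a translation elongation factor, had 205 ± 31.8 CPM in wild-type libraries, 861 ± 60.5 in those of the Raptor knockout and 970.4 ± 129 in those of the double knockout (SD, n = 4, 3 and 4). Tuba1b, an alpha-tubulin, had 62.9 ± 9.88, 235 ± 25.2 and 292 ± 18.8 CPM. Those most like Actn3 were Hist3h2a (0.11), Cdc14b (0.12), Sort1 (0.13), Hmgb1 (0.13) and Pde4dip (0.13). Pde4dip, which encodes the scaffold myomegalin, had 1488 ± 159, 1041 ± 26.8 and 1074 ± 47.2 CPM.

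Other Z-disc proteins did not move in a common direction. Of 29 tested, 7 rose and 9 fell in the double knockout, and 6 rose and 5 fell in the Raptor knockout. The medians were -0.03 and -0.01 on the log2 scale. Among all tested genes, 13% were called higher and 13.7% lower in the double knockout, and 8.73% and 9.43% in the Raptor knockout. These shares stand beside the counts of every list below, some of which are near them. Tcap, which caps titin at the Z-disc, fell on the log2 scale by 1.90 ± 0.17 in the double knockout (edgeR, adjusted p = 1.6e-06) and by 1.33 ± 0.19 in the Raptor knockout (adjusted p = 0.000167). Fhl3, a LIM domain protein, fell by 1.37 ± 0.16 and 0.95 ± 0.17, while its relative Fhl1 rose by 1.25 ± 0.17 and 1.34 ± 0.18 in the same order.

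At the M-band, the centre of the sarcomere, 4 of 12 tested genes rose and 3 fell in each knockout. Fhl2 rose from 1.23 ± 0.706 CPM to 7.03 ± 1.44 and 8.74 ± 2.40 in the Raptor and double knockout. Cmya5 (myospryn), a partner of alpha-actinin and titin, fell on the log2 scale by 1.59 ± 0.23 in the double knockout, and Myom2 rose by 0.68 ± 0.13. Cmya5 varied by library as Xirp2 did. It had 700 CPM in Raptor-knockout replicate 2 and 595 and 593 in double-knockout replicates 3 and 4, but 395 to 470 in the other knockout libraries. Wild-type replicate 4 had 905 CPM, and the other wild-type libraries 1628 to 1869. Of the non-muscle paralogs, Flna (filamin A) rose by 0.78 ± 0.18 and Actn4 by 0.62 ± 0.17 in the double knockout, and neither was called in the Raptor knockout. Neither passed the test between the knockouts.

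Of 12 calcineurin and NFAT genes, the pathway that myozenins bind, 2 rose and 4 fell in the double knockout and 2 rose and 2 fell in the Raptor knockout. Rcan1, an inhibitor and target of calcineurin signalling, rose 3.31-fold in the double knockout (edgeR, adjusted p = 1.93e-05) and 2.71-fold in the Raptor knockout (adjusted p = 0.000311). The catalytic subunit Ppp3cb fell by 0.97 ± 0.12 and 0.89 ± 0.13 on the log2 scale in the same order, and the factor Nfatc3 fell by 0.79 ± 0.22 and 0.89 ± 0.24. Of 9 genes of chaperone-assisted filamin turnover, 4 rose in each knockout and 2 fell in the double knockout. Cryab rose by 1.20 ± 0.18, Hspa8 by 0.92 ± 0.14 and Hspb8 by 0.78 ± 0.15 in the double knockout.

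Of 16 costamere and myotendinous junction genes, 6 rose and 1 fell in the double knockout, and 4 rose and 1 fell in the Raptor knockout. Thbs4, a matrix protein of that junction, rose 3.40-fold and 2.82-fold, the laminin receptor subunit Itga7 2.90-fold and 2.38-fold, and the muscle LIM protein Csrp3 2.81-fold and 2.6-fold. Among 11 Mef2 and Srf regulators, 2 rose and 4 fell in the double knockout and 1 rose and 2 fell in the Raptor knockout. Abra, an activator of Srf, rose by 1.56 ± 0.33 in the double knockout and had a log2 fold change of 0.27 ± 0.35 in the Raptor knockout, a difference that did not pass the test (1.29 ± 0.36, edgeR, adjusted p = 0.254) but was called by DESeq2 (1.3, adjusted p = 0.0099).

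Genes of fibre type moved beside the paralog pairs. Of 10 slow-fibre sarcomere genes tested, 8 rose in the double knockout and 7 in the Raptor knockout, and none fell. Slow troponin I, Tnni1, rose 4.57-fold and 4.47-fold, slow troponin C, Tnnc1, 2.85-fold and 2.46-fold, and slow myosin Myh7 2.83-fold and 2.53-fold. Of 12 fast-fibre genes, 6 fell and 2 rose in each knockout. Tpm1 fell by 1.32 ± 0.10 and 1.02 ± 0.11, and Tnni2 fell by 1.12 ± 0.12 and 0.89 ± 0.13. Of 10 genes of developing or regenerating fibres tested, 6 rose in the double knockout and 5 in the Raptor knockout. Embryonic myosin Myh3 rose from 3.37 ± 1.11 CPM to 52.2 ± 8.74 and 56.8 ± 11.6, neonatal myosin Myh8 from 2.66 ± 1.52 to 28.5 ± 14.5 and 69.4 ± 20, and Myod1 from 10.7 ± 1.82 to 23.4 ± 3.21 and 33.4 ± 2.58 CPM in the Raptor and double knockout.

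Markers of other cells also moved, and their part in the results above was not tested. The 14 macrophage markers summed to 89.4 to 160 CPM in wild type, 138 to 280.2 in the Raptor knockout and 194 to 260 in the double knockout, with 5 and 7 of 13 tested called higher (Lgals3 3.18-fold, Cd163 2.16-fold and C1qb 1.96-fold in the double knockout). The 11 fibroblast markers summed to 1000.1 to 1647, 1691 to 1826 and 1933 to 2141 CPM, with 4 and 7 called higher (Col3a1 2.88-fold, Col1a1 2.78-fold and Lum 2.20-fold). Tenocyte markers summed to 95.8 to 123, 183 to 244 and 192 to 276 CPM, with 3 of 4 tested called higher in each, Thbs4, Tnmd and Scx. Smooth muscle markers summed to 188 to 216, 224 to 267 and 210.2 to 283 CPM, with 1 of 7 higher in each, not the same gene. Acta2 rose 1.63-fold in the double knockout and was not called in the Raptor knockout. Its call was lost under 9 of 25 alternatives, among them the fit without double-knockout replicate 2, its highest library (72.2 CPM). Its wild-type range (23.6 to 36.3 CPM) overlapped that of the double knockout (31.5 to 72.2 CPM). Schwann cell markers summed to 106 to 131, 93.6 to 238 and 130.5 to 321 CPM, with 1 of 5, Pmp22, higher in the double knockout and none in the Raptor knockout. None of 8 endothelial markers (399 to 559, 485 to 569 and 366 to 715 CPM; Fabp4, Kdr) and none of 3 satellite cell markers tested (23.2 to 33.6, 21.9 to 29.1 and 30.5 to 37.9 CPM; Sdc4, Chodl) was called by edgeR. No marker was at 0 in every library, and Calcr and Megf10 stayed under 1 CPM in all. In the fit of 3 groups with the filter and no covariate, edgeR called no member of the lists named here between the knockouts. Cd163 was called there by edgeR with no filter, with only the 2 groups and with mt-Rnr2 as a covariate. Tcap and Sdc4 were called with only the 2 groups. DESeq2 called 3 of the list genes named, Abra, Myh8 and Cd163.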

How the data were processed

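Tags from gastrocnemius RNA in 11 libraries were counted per gene. The authors' gene tables hold expected counts, for which the submitters' processing notes name RSEM 1.3.3, STAR 2.7.0, fastp 0.20.0 and GRCm38 (mm10); the annotation release and strand setting are not given in the sources used here. A deposited table gives TPM. Columns that match no label (6) were left out.

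Expected counts were rounded (2.25% of values were not whole, none among the 110 values of the 10 genes). Symbols came from a gene-name table and positions from GENCODE M21. edgeR 4.0.16 in R 4.3.3 was run with filterByExpr, TMM and robust quasi-likelihood F tests on a fit of 3 groups, two-sided, with Benjamini-Hochberg adjustment over 10505 genes; the SE is the log2 fold change over the square root of F. The biological coefficient of variation was 20.6%, with 8 residual degrees of freedom. Ratios of paralogs used exact permutation tests. limma 3.58.1 was fitted to log2 TPM as deposited, plus 1 or 0.1 (mean TPM of at least 1, or no filter), and DESeq2 1.42.0 was an alternative. Fits were tested on simulated data. No pair of libraries was a repeat (lowest chi-square per degree of freedom 3.34).

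The members and lists were chosen with earlier results of these data known. Named genes are the members, Rptor, Mtor, up to 3 genes of each list with the smallest adjusted p in the double knockout (2 of the highest CPM where none passed), and the 5 genes most like Xirp1 and Actn3 (pseudocount 0.5). mt-Rnr2, Ttn, Neb, Xist and Cx3cr1 were named after their values were seen. Some members of the lists are not reported here.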

Additional observations from a re-analysis of the deposited data

Results flagged for a closer look

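Wild-type replicate 4 stood apart from the other 3 wild-type libraries in 2 genes, by a gap that exceeded the 95% critical value of Dixon's test. It had 1894 CPM of Myoz1, where the others had 1220.3 to 1261, and 2197 CPM of Ldb3, where the others had 1354 to 1412. Of 20 groups tested in this way, chance flags about 1 in 20. The same library had the lowest mt-Rnr2 (4834 CPM) and Ttn (11975 CPM) of its group.

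The log2 ratio of Actn3 to Actn2 differed between the double and the Raptor knockout by 0.35 (exact permutation p = 0.0286, adjusted over 9 tests 0.0367; all 4 double-knockout libraries were above all 3 Raptor-knockout libraries). It did not hold on the TPM scale.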

How the results depend on the processing

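Over 25 alternatives, the number of the 10 genes called was 3 to 8 in the double knockout and 6 to 8 in the Raptor knockout against wild type, and 0 between the knockouts. Of 250 values in each comparison, 27 (double knockout) and 31 (Raptor knockout) lost a call and 5 (double knockout) gained one; between the knockouts none did. No called value changed sign. Actn2 and Xirp1 kept their calls against wild type in all 25, in both knockouts. Myoz2 did so in the double knockout, and Flnc and Actn3, which fell, did so in the Raptor knockout. In the libraries with mt-Rnr2 above 10000 CPM the double knockout is replicates 3 and 4, those of the smaller run. The Raptor knockout there is 1 library, as is the double knockout in the libraries without Xist. Calls there assume that the lone library varies like the other groups. On that assumption Myoz2 in the Raptor knockout lost its call (1.90, edgeR, adjusted p = 0.0671), and so did Myot (0.40, adjusted p = 0.0655). For the double knockout against wild type, 4 of the 10 were called without the smaller run and 3 in the libraries without Xist, against 7, and leaving out libraries gave 5 to 8. Of all genes, 1847 were called with Xist as a covariate and 487 in the libraries without Xist, against 2802. For the Raptor knockout, 1162 were called on unfiltered TPM and 1216 in the libraries with high mt-Rnr2, against 1908, and 1143 (without its replicate 1) to 2420 with a library left out. For the double knockout against wild type, 2174 to 3358 of all genes were called with a library left out, against 2802. Between the knockouts, 3 genes were called. This became 105 with no filter, 155 with only the 2 groups, 99 with DESeq2, 1 on TPM, 9 on unfiltered TPM, 0 with Xist as a covariate, 0 in the libraries without Xist, 17 with mt-Rnr2 as a covariate and 0 to 84 with a library left out. Higher and lower calls split as 1367 and 1435 in the double knockout, but as 2421 and 844 with library totals and 1766 and 779 on TPM. In the Raptor knockout the split was 917 and 991, then 1638 and 573, and 1031 and 519. Library totals moved the median of all genes by 0.23 (double knockout) and 0.20 (Raptor knockout) on the log2 scale, and pseudocount 0.1 on TPM by 0.16 and 0.12. With a library left out, the Actn3 to Actn2 log2 difference ran from -2.91 to -2.28 (double knockout), -3.26 to -2.63 (Raptor knockout) and 0.30 to 0.39 (between them). The Myoz1 to Myoz2 difference ran from -2.66 to -2.29 and -2.61 to -2.12, and Xirp1 to Xirp2 from 2.36 to 3.11 and 2.21 to 2.98. Other alternatives took the Xirp1 to Xirp2 difference further. For the double knockout it was 3.66 without the smaller run, 1.89 in the libraries without Xist and 1.85 in those with high mt-Rnr2. From TPM it was 2.53 (double knockout) and 1.95 (Raptor knockout). Every ratio call was lost without any 1 wild-type library (adjusted p of 0.0643 or 0.129, exact permutation) or Raptor-knockout library (0.0857). Groups of 3 against 3, or 4 against 2, cannot reach the threshold; 4 against 3 can before adjustment, and its adjusted p depends on the other tests. Without a double-knockout library the calls against wild type held (adjusted p = 0.0429) and that between the knockouts did not (0.129). The Actn3 to Actn2 difference between the knockouts was 0.13 from TPM and 0.44 in the libraries with high mt-Rnr2, where that of Xirp1 to Xirp2 was 1.40 (Raptor knockout). Apart from these constructions the cause was not tested. The 2 mt-Rnr2 alternatives were chosen after seeing the data. No paired analysis was possible because the labels give no replicate numbers.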
